A study of Mus musculus with 6 samples.

Results

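Glucose enters the beta cell through facilitative transporters and is phosphorylated to glucose 6-phosphate, whose breakdown raises ATP and closes ATP-sensitive potassium (KATP) channels. The membrane then depolarises, L-type voltage-gated calcium channels open, and the calcium that enters triggers release of insulin granules. A total of 6 genes of this chain, chosen by name but with earlier results of these data known, were followed among 53379 gene identifiers. They were the glucose transporter gene Slc2a2, the islet glucose 6-phosphatase gene G6pc2, the KATP channel genes Abcc8 and Kcnj11, and the L-type channel genes Cacna1c and Cacna1d. All 6 passed the filter on low counts, as did 17767 genes in all.

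RNA-seq had been done on Min6 cells, an insulin-secreting line from a mouse insulinoma, in 3 libraries with a guide RNA (gRNA) against Rosa26, the negative control, and 3 with a gRNA against JunD, a transcription factor of the AP-1 family. Both gRNAs were carried by the lentiCRISPR v2 vector. All libraries came from cells at passage 28 that had grown in high-glucose medium, had been exposed to glucolipotoxic conditions for 30 hours and were collected 8 days after transduction, and no unstressed cells were analysed here. The labels do not say how many gRNAs were used, whether cells were cloned or whether replicates were separate transductions, and p-values therefore reflect only how these libraries vary, which may be technical.

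Totals ran from 41071566 to 50024931 counts per library. All 8 beta-cell markers listed, insulin genes among them, were present, with a summed level of 40288 to 76296 CPM (a gene's counts per 1e6 counts of the TMM-scaled library size) in the Rosa26 gRNA libraries and 74382 to 81111 CPM in the JunD gRNA libraries. The summed level of 5 acinar markers was at most 0.289 CPM, with Prss1 and Ptf1a at 0 counts, and that of 5 macrophage markers at most 4.23 CPM, with Adgre1 at 0. Alpha-cell markers summed to 521 to 699 CPM, nearly all from the glucagon gene Gcg. The 4 duct markers summed to 677 to 868 CPM in the Rosa26 gRNA libraries and 803 to 826 CPM in the JunD gRNA libraries, nearly all from Krt7 and Spp1. In the fit without Rosa26 gRNA replicate 1 Krt7 rose by 0.19 and Spp1 fell by 0.51 on the log2 scale (edgeR adjusted p = 0.00508 and 1.89e-07). The pancreatic polypeptide gene Ppy fell by 0.70 (edgeR adjusted p = 1.45e-05). Among the beta-cell markers Pdx1, Mafa, Nkx6-1 and Ins2 rose by 0.37, 0.47, 0.21 and 0.11 (edgeR adjusted p = 1.45e-05, 0.000117, 0.00552 and 0.0389). Iapp fell by 0.11 (edgeR adjusted p = 0.0382), and Ins1, Slc30a8 and Ucn3 did not pass. With 6 libraries 0 of 17767 genes passed in edgeR, so none of these marker changes passed there. The part of these marker changes in the results was not tested. Jund was lower in each JunD gRNA library, at 22.7, 25.1 and 27.2 CPM, than in any Rosa26 gRNA library, at 38.5, 34.5 and 30.6 CPM. The groups also did not overlap for 24.8% of all genes, in either direction. The log2 fold change of Jund was -0.47 with 6 libraries, which did not pass (edgeR adjusted p = 0.417). Without Rosa26 gRNA replicate 1 it was -0.38 (edgeR adjusted p = 0.00773). Rosa26 gRNA replicate 1 stood apart from the rest across the transcriptome: its genes lay a median of 0.259 on the log2 scale from the mean of the other libraries, against 0.0796 to 0.140 for each of those. The fitted changes of the 6 genes are therefore given with 6 libraries and without that one. Those of other genes are mostly given without it only. The words "rose" or "fell" are used for genes past an adjusted p of 0.05 without it.

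Slc2a2 was the 1 gene of the 6 that rose. With 6 libraries, 0 of the 6 passed in edgeR's quasi-likelihood test, 0 had an unadjusted p under 0.05 where 11.9% of all genes did, and DESeq2 and limma-voom also called 0. Over all 17767 genes edgeR and limma-voom also called 0%, while DESeq2 called 68 genes. Without Rosa26 gRNA replicate 1, 1 of the 6 passed, where 1.45% of 18296 genes passed as higher and 1.40% as lower, and 2 had an unadjusted p under 0.05, where 15.9% of all genes did. The log2 fold change was under 0.1 in size for 3 of the 6 with 6 libraries and for 5 of the 6 without Rosa26 gRNA replicate 1, where the shares over all genes were 33.2% and 47.5%. The groups overlapped for all 6 genes with 6 libraries, where they did not overlap for 24.8% of all genes. Without Rosa26 gRNA replicate 1 they did not overlap for Slc2a2 and G6pc2, 2 of 6, where the share over all genes was 33.4%, so that count is close to the background. The median log2 fold change of the 6 was 0.05 with 6 libraries and 0.04 without Rosa26 gRNA replicate 1, against -0.0064 and -0.0030 over all genes tested.

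**Figure D1:**
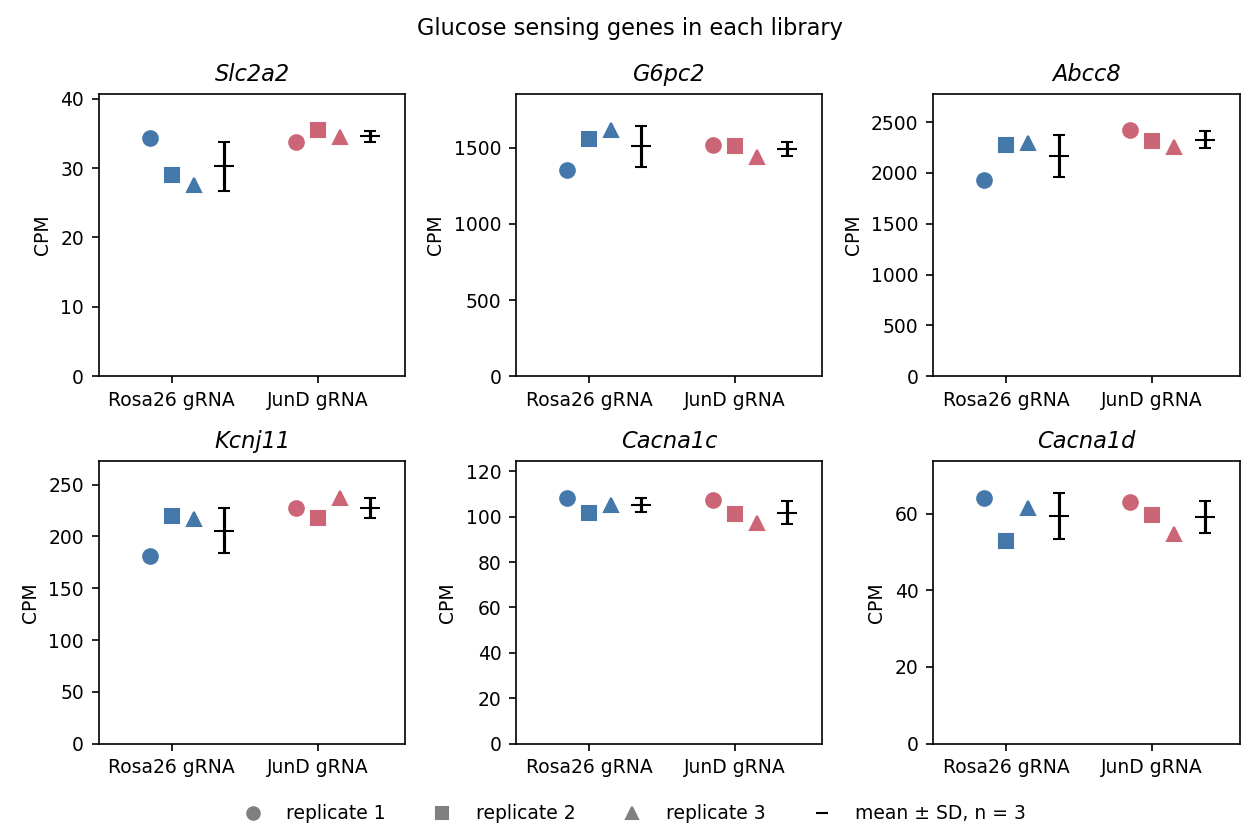
Level of each of the 6 genes in every library, in CPM on a linear axis from 0, with Rosa26 gRNA libraries in blue and JunD gRNA libraries in red. Symbols mark the replicate number and black bars the mean ± SD of 3 libraries. The circle of Rosa26 gRNA replicate 1 is the lowest point for G6pc2, Abcc8 and Kcnj11, and lies among the JunD gRNA libraries for Slc2a2.

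The sequences before the start of Slc2a2, the gene that rose, and of G6pc2, the more abundant gene of the uptake and phosphate steps, are shown because the targeted protein belongs to a family that binds DNA at AP-1 sites. Each line holds the 250 bases before an annotated start, from RefSeq on GRCm38.p6, plus strand, for Slc2a2 at chr3:28697653-28697902 and for G6pc2 at chr2:69219699-69219948. Capitals mark matches to the E-box CANNTG, a site type bound by basic helix-loop-helix factors such as NeuroD1, and to TGCTGAC, part of the site bound by Maf factors, on either strand.
Slc2a2: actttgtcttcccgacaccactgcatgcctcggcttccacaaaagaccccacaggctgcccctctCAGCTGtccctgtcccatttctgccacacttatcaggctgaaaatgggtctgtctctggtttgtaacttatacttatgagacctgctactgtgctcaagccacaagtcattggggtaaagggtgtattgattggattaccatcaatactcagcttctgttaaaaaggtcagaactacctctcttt
G6pc2: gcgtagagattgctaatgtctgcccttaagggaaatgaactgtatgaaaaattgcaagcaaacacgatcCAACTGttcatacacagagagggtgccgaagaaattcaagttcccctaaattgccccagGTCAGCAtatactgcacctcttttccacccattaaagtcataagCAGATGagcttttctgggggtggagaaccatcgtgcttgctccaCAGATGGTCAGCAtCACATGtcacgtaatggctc
Neither window holds the AP-1 letters TGANTCA or the related CRE letters TGACGTCA, on either strand, which 6.75% and 1.55% of 32851 windows of this length hold. The Slc2a2 window holds 1 E-box, which begins 185 bases before the start. The G6pc2 window holds 4 E-boxes and 2 matches to TGCTGAC, the latter beginning 122 and 28 bases before the start, and none of these matches overlap. It precedes a start inside the annotated gene, and the window before the outermost G6pc2 start holds 1 E-box and no TGCTGAC. At least 1 E-box is found in 66.2% of windows and at least 1 TGCTGAC in 3.81%. The table of windows held 8 for 4 of the 6 genes, including a second G6pc2 start and 5 starts of Cacna1c and Cacna1d, and none of the 8 had an AP-1 or CRE match. Abcc8 and Kcnj11 were not matched to a window. A match is a run of letters and not a measured binding site, and its absence says only that these letters are not in these bases.

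Slc2a2 encodes GLUT2, the low-affinity glucose transporter of the mouse beta cell. It lies on chromosome 3 (GRCm38, 28697903 to 28731359, plus strand). Its level was 34.3, 29.0 and 27.6 CPM in Rosa26 gRNA replicates 1, 2 and 3 and 33.8, 35.4 and 34.5 CPM in JunD gRNA replicates 1, 2 and 3, from 1313 to 1693 counts per library. The JunD gRNA libraries were close together, Rosa26 gRNA replicates 2 and 3 were lower than all of them, and Rosa26 gRNA replicate 1 lay inside their range. Without Rosa26 gRNA replicate 1 Slc2a2 rose by 0.29 ± 0.07 on the log2 scale (SE, edgeR adjusted p = 0.0171), which is 22.1% higher with a 95% interval from 11.2% to 34.1%. With 6 libraries its log2 fold change was 0.19 ± 0.10 (SE, edgeR adjusted p = 0.429). The call thus rests on 2 control libraries, and with either of them left out as well it was lost (edgeR adjusted p = 0.125 without replicate 2 and 0.436 without replicate 3). Its transcripts hold 43.4% G and C, the lowest share of the 6. After a correction of each library for GC content and merged exon length its log2 fold change was 0.36 with 6 libraries (edgeR adjusted p = 0.0676) and 0.37 without Rosa26 gRNA replicate 1 (edgeR adjusted p = 0.000689).

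Slc2a1, which encodes the widely expressed transporter GLUT1, was set beside Slc2a2 within each library, a ratio that does not depend on library scaling. The count ratio of Slc2a2 to Slc2a1 was 1.03, 0.789 and 0.724 in the Rosa26 gRNA libraries and 0.942, 1.08 and 0.912 in the JunD gRNA libraries. The groups overlapped because of Rosa26 gRNA replicate 1. The mean difference was 0.22 on the log2 scale (exact permutation test over libraries, two-sided, p = 0.3, where 3 against 3 libraries cannot go below 0.1, and 0.7 adjusted over the 3 ratios tested), and 0.37 without that library. Per kilobase of merged exon, a scale that allows genes to be compared, Slc2a2 stood at 5.64 ± 0.57 CPM per kb and Slc2a1 at 10.2 ± 0.655 CPM per kb (SD over 6 libraries), so GLUT1 transcripts were 1.52 to 2.27 times as abundant in every library. Slc2a5, which encodes the fructose transporter GLUT5, was the most abundant of the 7 transporter genes listed, at 56.1 CPM per kb. Slc2a8 stood at 8.55 CPM per kb, and its range of 6.48 to 9.87 overlapped that of Slc2a1 (9.35 to 10.9) but not that of Slc2a2 (4.80 to 6.16). Slc2a3 and Slc2a4, the transporter genes of neurons and of muscle and fat, were at or below 0.166 and 0.439 CPM per kb in all libraries.

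G6pc2 encodes the islet glucose 6-phosphatase, which removes the phosphate from glucose 6-phosphate and so opposes the first step of glucose use. It lies on chromosome 2 (GRCm38, 69211073 to 69227841, plus strand). Its level was 1356, 1558 and 1614 CPM in the Rosa26 gRNA libraries and 1521, 1513 and 1438 CPM in the JunD gRNA libraries. Rosa26 gRNA replicate 1 was the lowest of the 6, and the other Rosa26 gRNA libraries were higher than all JunD gRNA libraries. Its log2 fold change was -0.02 ± 0.08 (SE, edgeR adjusted p = 0.924) with 6 libraries and -0.09 ± 0.03 (SE, edgeR adjusted p = 0.146) without Rosa26 gRNA replicate 1. The second value is a change of -6.07% with a 95% interval from -10.4% to -1.56%, and it did not pass the test across genes. Slc2a2 and G6pc2 therefore stood on opposite sides of Rosa26 gRNA replicates 2 and 3 in the JunD gRNA libraries, and their log2 levels had a Pearson correlation of -0.71 over the 6 libraries, a description over points that share these libraries.

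Per kilobase of exon G6pc2 was the most abundant of the 6 genes, at 760 ± 46.3 CPM per kb (SD over 6 libraries), and ranked 34 among 17767 genes on that scale. It was 115 to 170 times as abundant as Slc2a2 in each library. G6pc3, which encodes the widely expressed glucose 6-phosphatase, stood at 30.2 CPM per kb, so G6pc2 was 22.5 to 32.7 times as abundant. G6pc, the liver and kidney form, had no counts in 5 libraries and 0.0482 CPM, 2 counts, in JunD gRNA replicate 1, below the 0.0599 to 0.0731 CPM that a count of 0 allows at 3 counts, which covers counting error only. Slc37a4, which encodes the carrier of glucose 6-phosphate into the endoplasmic reticulum where G6pc2 works, was at 38.9, 46.3 and 47.3 CPM in the Rosa26 gRNA libraries and 50.5, 53.8 and 55.1 CPM in the JunD gRNA libraries. These groups did not overlap, and the log2 fold change of 0.27 with 6 libraries and 0.18 without Rosa26 gRNA replicate 1 did not pass (edgeR adjusted p = 0.417 and 0.0868). It passed when JunD gRNA replicate 1 was left out as well (0.22, edgeR adjusted p = 0.0427).

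**Figure D2:**
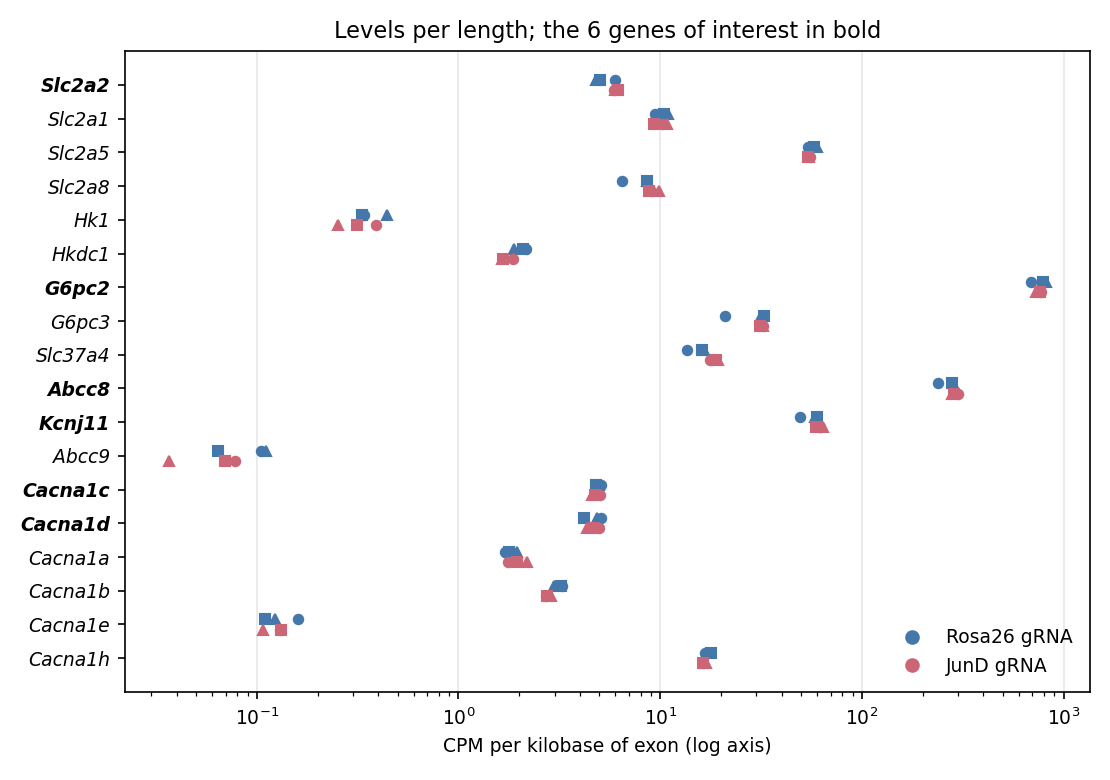
Level per kilobase of merged exon (CPM per kb, log axis) in each library for the 6 genes, in bold, and related genes of each step. Rosa26 gRNA libraries are blue and JunD gRNA libraries red, with symbols by replicate number. G6pc2 lies at 687 to 818 CPM per kb, Abcc8 at 239 to 299, Kcnj11 at 49.2 to 64.5, and Slc2a2, Cacna1c and Cacna1d between 4.18 and 6.16.

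The KATP channel is an octamer of pore subunits, Kir6.2 from Kcnj11, and regulatory sulfonylurea receptor subunits, SUR1 from Abcc8, in equal numbers. The genes are neighbours on the minus strand of chromosome 7 (GRCm38, 46093953 to 46100764 for Kcnj11 and 46104523 to 46180033 for Abcc8). Abcc8 was at 1932, 2275 and 2294 CPM in the Rosa26 gRNA libraries and 2419, 2316 and 2253 CPM in the JunD gRNA libraries. Kcnj11 was at 181, 219 and 217 CPM in the Rosa26 gRNA libraries and 228, 218 and 237 CPM in the JunD gRNA libraries. Both were lowest in Rosa26 gRNA replicate 1, while the other 5 libraries overlapped between groups.

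Neither KATP gene passed the test. The log2 fold change of Abcc8 was 0.10 ± 0.08 (SE, edgeR adjusted p = 0.535) with 6 libraries and 0.03 ± 0.03 (SE, edgeR adjusted p = 0.75) without Rosa26 gRNA replicate 1. The latter had a 95% interval from -2.57% to 6.58%. The log2 fold change of Kcnj11 was 0.15 ± 0.09 (SE, edgeR adjusted p = 0.452) with 6 libraries and 0.06 ± 0.04 (SE, edgeR adjusted p = 0.517) without that library, with an interval from -1.70% to 11.0%. Their transcripts hold 57.0% and 57.6% G and C, the highest shares of the 6. After the correction for GC content and merged exon length, the log2 fold changes with 6 libraries were 0.015 for Abcc8 and 0.0030 for Kcnj11. Without Rosa26 gRNA replicate 1 they were -0.0096 and 0.014.

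The 2 KATP genes kept nearly the same ratio in 5 of the 6 libraries. The count ratio of Kcnj11 to Abcc8 was 0.0937, 0.0963 and 0.0944 in the Rosa26 gRNA libraries and 0.0942, 0.0942 and 0.105 in the JunD gRNA libraries, with JunD gRNA replicate 3 the highest. The mean difference was 0.04 on the log2 scale (exact permutation test, two-sided, p = 0.7, and 0.7 adjusted over the 3 ratios), and -0.0097 with JunD gRNA replicate 3 left out. The ratio in Rosa26 gRNA replicate 1 was close to the others, although it was the lowest library for each gene. Per kilobase of merged exon Abcc8 stood at 278 ± 20.5 CPM per kb and Kcnj11 at 58.9 ± 5.19 CPM per kb (SD over 6 libraries), so the SUR1 transcript was 4.32 to 4.85 times as abundant as the Kir6.2 transcript. With the length of the transcript that has the longest coding sequence in place of merged exons, chosen after the data were seen, this ratio was 6.68. The other SUR and Kir6 genes, Abcc9 and Kcnj8, which form the KATP channel of vascular smooth muscle, were at or below 0.926 and 0.195 CPM.

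L-type channels of the beta cell have the pore subunits Cav1.2, from Cacna1c, and Cav1.3, from Cacna1d. Cacna1c lies on chromosome 6 (GRCm38, 118587240 to 119196418, minus strand) and Cacna1d on chromosome 14 (30039939 to 30491455, minus strand). Cacna1c was at 108, 102 and 105 CPM in the Rosa26 gRNA libraries and 107, 101 and 97.1 CPM in the JunD gRNA libraries. Cacna1d was at 64.1, 52.8 and 61.4 CPM in the Rosa26 gRNA libraries and 63.0, 59.6 and 54.8 CPM in the JunD gRNA libraries. The groups overlapped for both, and Rosa26 gRNA replicate 1 was the highest library for both.

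Neither L-type gene passed the test, and the sign of each changed with the processing or the libraries used. Cacna1c had a log2 fold change of -0.05 ± 0.07 (SE, edgeR adjusted p = 0.747) with 6 libraries and -0.03 ± 0.05 (SE, edgeR adjusted p = 0.857) without Rosa26 gRNA replicate 1, where its 95% interval ran from -8.57% to 5.31%. After the GC and length correction without that library it was 0.0064. Cacna1d had a log2 fold change of -0.0065 ± 0.09 (SE, edgeR adjusted p = 0.98) with 6 libraries and 0.05 ± 0.07 (SE, edgeR adjusted p = 0.783) without that library, where its interval ran from -5.71% to 13.7%. A stretch of 589 bases of the Cacna1d exons overlaps exons of Chdh on the opposite strand, and how reads there were counted depends on a strand setting that is not known here. Chdh itself had at most 0.487 CPM in any library.

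The balance of the L-type genes was close to even on the scale of merged exons. The count ratio of Cacna1c to Cacna1d was 1.69, 1.93 and 1.72 in the Rosa26 gRNA libraries and 1.70, 1.69 and 1.77 in the JunD gRNA libraries, with Rosa26 gRNA replicate 2 the highest. The mean difference was -0.04 on the log2 scale (exact permutation test, two-sided, p = 0.7, and 0.7 adjusted over the 3 ratios), and 0.016 with Rosa26 gRNA replicate 2 left out. Per kilobase of merged exon Cacna1c stood at 4.88 ± 0.2 CPM per kb and Cacna1d at 4.70 ± 0.363 CPM per kb (SD over 6 libraries), ranges that overlap, and Cacna1d made up 46.5% to 49.8% of their sum. With the length of the transcript that has the longest coding sequence, Cacna1c was 1.72 times as abundant as Cacna1d. Cacna1c was thus above Cacna1d with either length, and only the size of the gap depended on the length used. Among the 10 genes for pore subunits of voltage-gated calcium channels, both stood below Cacna1h, the T-type Cav3.2 gene, at 16.8 CPM per kb, and above Cacna1b, the N-type gene, at 2.97. Cacna1e, the R-type gene of mouse islets, stood at 0.127 CPM per kb.

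**Figure D3:**
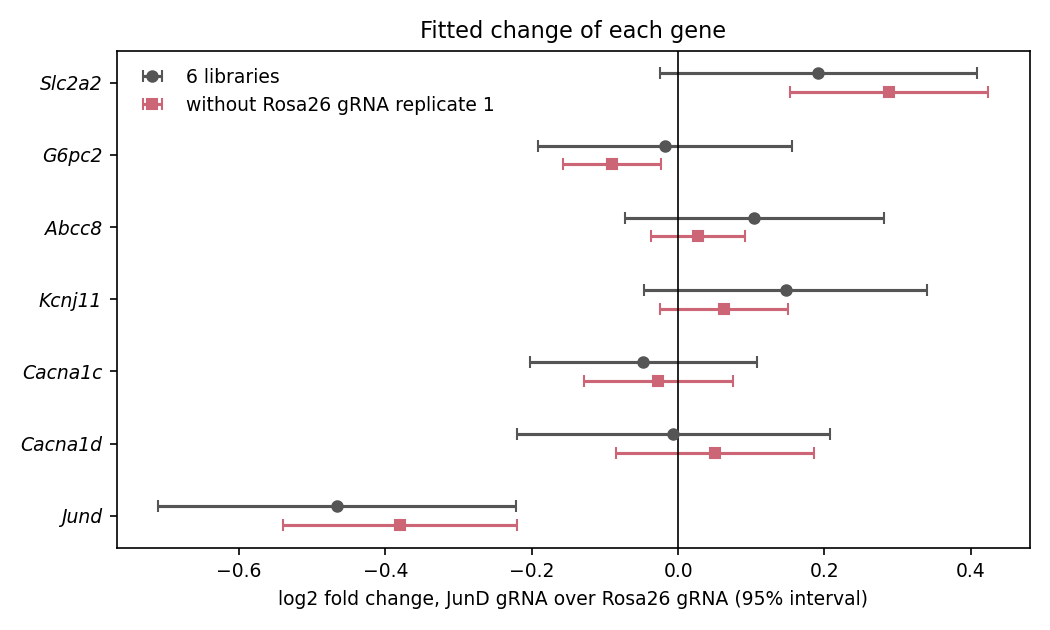
Fitted log2 fold change of JunD gRNA over Rosa26 gRNA for the 6 genes and Jund, with 95% intervals, from all 6 libraries (grey circles) and without Rosa26 gRNA replicate 1 (red squares). Of the 6 genes, the interval of Slc2a2 (0.15 to 0.42) lies above 0 and that of G6pc2 (-0.16 to -0.02) below 0 without Rosa26 gRNA replicate 1, and all 6 intervals include 0 with 6 libraries.

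The spread between libraries exceeded counting error for most of the 6 genes. In the Rosa26 gRNA group the coefficient of variation was 9.02% for G6pc2, 9.41% for Abcc8 and 10.4% for Kcnj11, where counting error alone gives 0.374%, 0.312% and 1.01%. With that group's replicate 1 left out these were 2.50%, 0.567% and 0.853%. The least abundant by count, Slc2a2, had a coefficient of variation of 2.37% in the JunD gRNA libraries and a counting error of 2.57%, so its spread there was no larger than counting gives. Cacna1d varied most in the JunD gRNA libraries, by 7.02% against a counting error of 1.97%.

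The genes whose level over the 6 libraries was most like that of each gene were found by the Pearson correlation of log2 CPM among 10176 genes with a mean of at least 10 CPM. They were Tsnax and Papss1 for Slc2a2 (r = 0.996 and 0.990), Tk2 and Atp6ap1 for G6pc2 (r = 0.994 and 0.992), Pip4k2c and Kmt2b for Abcc8 (r = 0.997 and 0.997), and Hnrnpl and Fmc1 for Kcnj11 (r = 0.999 and 0.999). For Cacna1c they were Wdr3 and Gm12191 (r = 0.991 and 0.981) and for Cacna1d Wdr47 and Rtf1 (r = 0.975 and 0.972). These are the highest values among 10176 genes over 6 points, and the points share library composition. Abcc8 and Kcnj11 had r = 0.88 over 6 libraries and r = -0.03 over the 5 without Rosa26 gRNA replicate 1, so their likeness rests on that library. Cacna1c and Cacna1d had r = 0.81 and r = 0.73.

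Other genes of the chain were taken from 5 lists with 85 genes, of which 76 were tested without Rosa26 gRNA replicate 1. Of these 3 rose, 4 fell and 69 did not pass, that is 9.21% called, against 2.86% of all genes in either direction. The lists were chosen with earlier results of these data known, so the difference between these shares is not a test of the lists. The median log2 fold change of the 76 was 0.013. With 6 libraries 0 of 74 passed in edgeR, and 17 had an unadjusted p under 0.05 where 11.9% of all genes did. DESeq2 called 2, Gem and Ryr2, and limma-voom called 0, where over all 17767 genes they called 68 and 0.

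Regulators of L-type channels and genes of calcium handling held 6 of the 7 calls, with 3 of 24 tested members rising and 3 falling. Gem, which encodes a small GTPase that inhibits L-type channels, was at 26.7, 25.4 and 23.4 CPM in the Rosa26 gRNA libraries and 18.2, 18.7 and 18.5 CPM in the JunD gRNA libraries. It fell by 0.40 ± 0.08 on the log2 scale (SE, edgeR adjusted p = 0.00402). Ryr2, the gene of a calcium release channel of the endoplasmic reticulum, was at 28.2, 24.2 and 26.1 CPM against 19.4, 21.0 and 17.7 CPM. It fell by 0.38 ± 0.08 (SE, edgeR adjusted p = 0.00959). In both genes all 3 Rosa26 gRNA libraries lay above all JunD gRNA libraries, Rosa26 gRNA replicate 1 included, and the log2 fold change with 6 libraries was -0.44 for each (edgeR adjusted p = 0.417 for both). Atp2a3, which encodes the calcium pump SERCA3, was at 1435, 1653 and 1647 CPM against 1842, 1792 and 1854 CPM, again without overlap, and rose by 0.15 ± 0.03 (SE, edgeR adjusted p = 0.00808).

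The other 3 calls of that list were named after their values were seen. The calmodulin gene Calm3 and the calcium/calmodulin kinase gene Camk2b both rose by 0.17 (edgeR adjusted p = 0.0163 and 0.0386), and Atp2b1, the gene of a plasma membrane calcium pump, fell by 0.17 (edgeR adjusted p = 0.0302). All 3 groups were free of overlap over the 6 libraries, where that holds for 24.8% of all genes. After the GC and length correction without Rosa26 gRNA replicate 1, Gem, Ryr2, Atp2a3, Calm3 and Camk2b still passed, and Atp2b1 did not (log2 fold change -0.075, edgeR adjusted p = 0.253). Ppp3cb, a calcineurin subunit gene, did not pass before that correction and passed with it (0.18, edgeR adjusted p = 0.0288), which made 4 higher and 2 lower. Over all 18270 genes of that fit 362 passed as higher and 206 as lower. With JunD gRNA replicate 2 left out as well, Camk2b and Atp2b1 did not pass. The calls of this list rest on Rosa26 gRNA replicates 2 and 3 as the only controls. Leaving out either as well leaves 1 control library, too few to judge these calls. Rrad and Rem2, which encode relatives of Gem that also inhibit L-type channels, had log2 fold changes of -0.38 and 0.05 (edgeR adjusted p = 0.169 and 0.853).

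**Figure D4:**
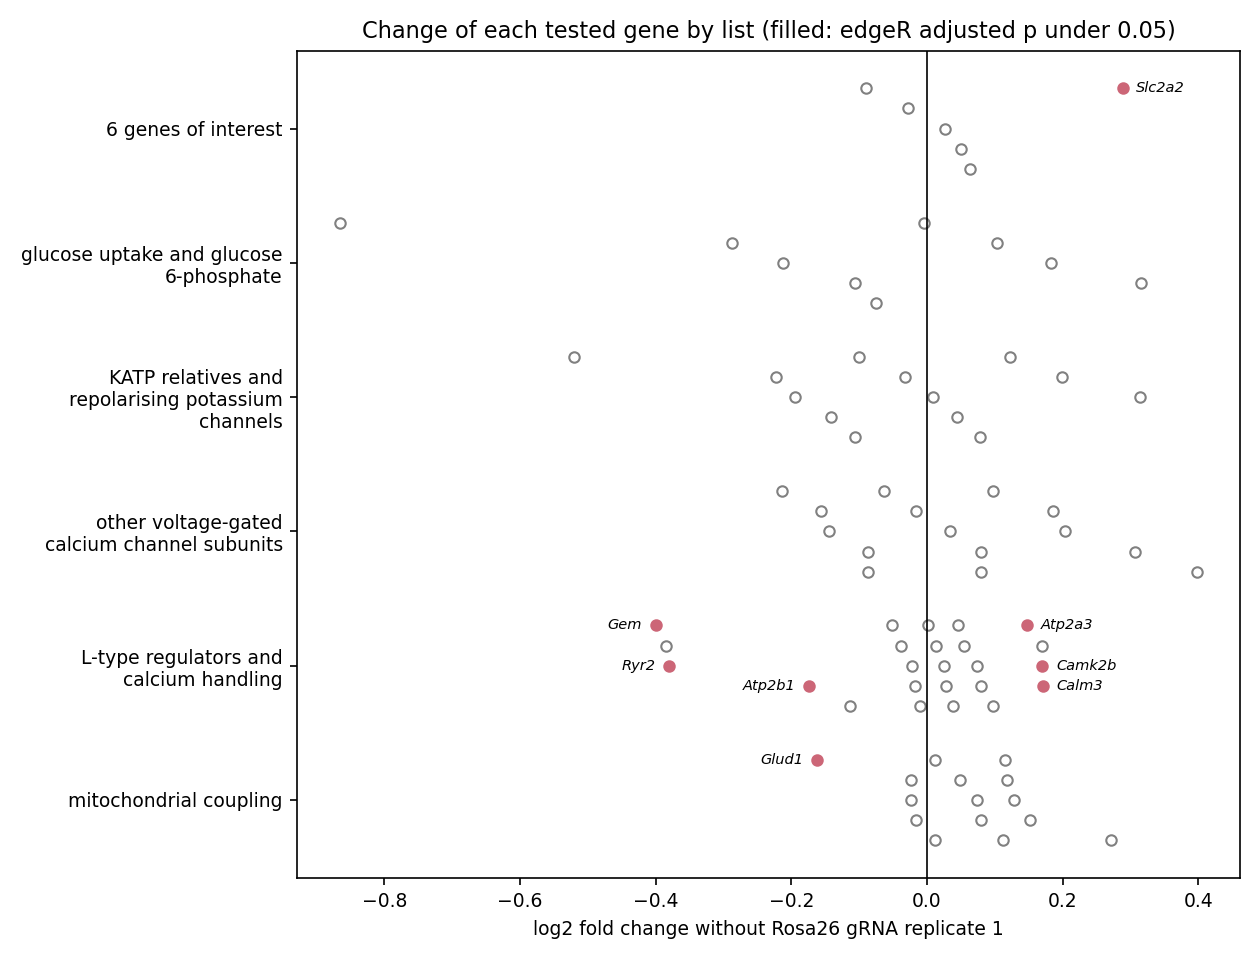
Log2 fold change without Rosa26 gRNA replicate 1 for each tested gene of the 6 and of the 5 related lists, with height within a row used only to separate points. Filled points passed at an adjusted p under 0.05: Slc2a2 among the 6, then 6 genes of calcium handling and 1 of mitochondrial coupling.

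Genes of mitochondrial coupling, the step between glycolysis and ATP, had 1 call among 15 in edgeR, Glud1, and 2 in DESeq2 and in limma-voom, Glud1 and Pcx. Over all 18296 genes tested without Rosa26 gRNA replicate 1, edgeR called 523, DESeq2 610 and limma-voom 588. Glud1, which encodes glutamate dehydrogenase, was at 232, 221 and 223 CPM against 195, 200 and 202 CPM, without overlap, and fell by 0.16 ± 0.04 (SE, edgeR adjusted p = 0.0295). Its call was lost with the correction for GC and length (edgeR adjusted p = 0.0680), and also when JunD gRNA replicate 1 or 2 was left out (edgeR adjusted p = 0.0789 and 0.0684). Pcx, the pyruvate carboxylase gene that feeds the citric acid cycle, had a log2 fold change of 0.15 (edgeR adjusted p = 0.0519, DESeq2 0.0171, limma-voom 0.0396), with levels of 137, 137 and 140 CPM against 154, 152 and 157 CPM. Gpd2, the glycerol phosphate shuttle enzyme gene, had a log2 fold change of 0.13 (edgeR adjusted p = 0.133) and passed after the GC and length correction (0.17, edgeR adjusted p = 0.00876). Rosa26 gRNA replicate 1 held 229 CPM of Gpd2, above every other library, where the range was 148 to 168 CPM. With 6 libraries the sign turned, at a Gpd2 log2 fold change of -0.11 (edgeR adjusted p = 0.745).

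No gene passed in edgeR among 9 of glucose uptake and glucose 6-phosphate, 13 of the KATP relatives and other potassium channels, or 15 other calcium channel subunits, without Rosa26 gRNA replicate 1. At an unadjusted p under 0.05 there were 3, 1 and 4, beside 15.9% of all genes. DESeq2 called 0, 0 and 1, the latter Cacna2d1, where it called 610 of all 18296 genes. In limma-voom 0 were called in each, where 588 of all genes were called. With the correction for GC and length, 1 of the 15 calcium channel subunits passed, Cacna1h (-0.15, edgeR adjusted p = 0.0167, against -0.09 and 0.316 without the correction). Hk1, the gene of a high-affinity hexokinase, was at 2.16 to 3.79 CPM, and Hk2, of another, was at or below 0.204 CPM and was not tested. Hkdc1, also of that list, was more abundant, with Hk1 at 0.154 to 0.235 times its level per kilobase of exon. The log2 fold change of Hkdc1 was -0.21 without Rosa26 gRNA replicate 1 (edgeR adjusted p = 0.335). The glucokinase gene was not among the genes followed or listed. Kcnk16, the gene of the islet potassium channel TALK-1, was at 161, 188 and 195 CPM against 210, 199 and 217 CPM, with a log2 fold change of 0.12 (edgeR adjusted p = 0.137). Kcnn2 and Kcnma1, genes of calcium-activated potassium channels, had log2 fold changes of 0.20 and -0.11 (edgeR adjusted p = 0.352 and 0.364). Cacna2d1, an auxiliary subunit gene, was at 207, 134 and 140 CPM against 123, 126 and 123 CPM, and its log2 fold change was -0.14 without Rosa26 gRNA replicate 1 and -0.37 with it (edgeR adjusted p = 0.0753 and 0.417). Cacnb1, another auxiliary subunit gene, and Cacna1b had log2 fold changes of 0.19 and -0.16 (edgeR adjusted p = 0.113 and 0.248). Slc2a5 and Slc2a3 had log2 fold changes of -0.11 and -0.87 (edgeR adjusted p = 0.174 and 0.233), the latter at or below 1.20 CPM in every library.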

How the data were processed

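RNA abundance was measured in 6 Min6 libraries, 3 per gRNA, grouped by their titles. The authors deposited raw counts per gene, 1 table per library with 53379 Ensembl identifiers. Per the submitters' processing notes, TopHat2, featureCounts and the build mm10 were used. Their versions, the annotation release and the strand setting are not given in sources used here.

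Symbols came from a table of identifiers, matched for 53274. Coordinates, merged exon lengths and GC content came from GENCODE M21 on GRCm38, which mm10 names. Lengths of merged exons include alternative exons, so levels per kilobase of genes with many isoforms are low estimates. Counts were fitted with edgeR 4.0.16 (R 4.3.3): filterByExpr, TMM, quasi-likelihood test of the group, two-sided, Benjamini-Hochberg over all genes at 0.05. SE is the absolute log2 fold change divided by the root of F, and 95% intervals use its t distribution. Ratios within libraries were tested by exact permutation. The genes, lists and the use of a fit without Rosa26 gRNA replicate 1 were chosen with earlier results of these data known. Named genes were the 6, Jund, the 3 smallest p in each list and the 2 most correlated genes for each of the 6, and others were named after their values were seen.

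Alternatives were other normalizations, DESeq2 1.42.0, limma-voom (limma 3.58.1), other count filters, the 10 most abundant genes left out, each library left out, the replicate number as a block, and a spline correction (5 degrees of freedom) for GC content and length. Replicates differed by more than sampling noise (lowest chi-square per degree of freedom 3.27). The edgeR procedure was tested on simulated counts, with the same dispersion for every gene and no library set apart. That test therefore does not cover a library such as Rosa26 gRNA replicate 1.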

Additional observations from a re-analysis of the deposited data

How the results depend on the processing

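Slc2a2 was higher in the JunD gRNA libraries under all 16 alternatives run with 6 libraries and all 15 run without Rosa26 gRNA replicate 1, with a log2 fold change from 0.13 to 0.36 with 6 libraries and from 0.26 to 0.40 without Rosa26 gRNA replicate 1. It passed with 6 libraries once that library was left out (0.29, leave-one-out range 0.13 to 0.29), and was lost without it when Rosa26 gRNA replicate 2 (0.33) or 3 (0.26) was also left out (range 0.26 to 0.33). For the other 5 genes no alternative passed, but signs near 0 turned. G6pc2 with 6 libraries was 0.029 once corrected for GC and length and 0.033 with the replicate block added, and ranged from -0.090 to 0.034 over left-out libraries, above 0 when Rosa26 gRNA replicate 2 (0.0069) or 3 (0.034) or JunD gRNA replicate 3 (0.0076) was left out. Cacna1d with 6 libraries was 0.0047 with no count filter, 0.071 with the correction and 0.073 with the replicate block added, and ranged from -0.084 to 0.050, above 0 when Rosa26 gRNA replicate 1 (0.050) or 3 (0.019) or JunD gRNA replicate 3 (0.046) was left out. Without Rosa26 gRNA replicate 1 it ranged from -0.048 to 0.16. On the same 5 libraries Abcc8 was -0.00091 with the replicate block, -0.038 with block and correction and -0.0096 with the correction alone, and Cacna1c 0.0064 with the correction and -0.061 to 0.0056 over left-out libraries. The Kcnj11 to Abcc8 ratio ranged from -0.0097 to 0.071 and the Cacna1c to Cacna1d ratio from -0.080 to 0.016.

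Genes called with 6 libraries were 0, but 68 with DESeq2 (21 higher, 47 lower), 86 with no count filter, 27 with the correction, 28 with the replicate block added to it, and 0 to 523 over left-out libraries. Without Rosa26 gRNA replicate 1 the 523 calls became 870 with no count filter, 832 with the replicate block, 148 at an adjusted p under 0.01, and 46 to 672 over further left-out libraries, lowest without Rosa26 gRNA replicates 2 (51) or 3 (46). The share of higher calls was 50.9%, and 63.7% after the GC and length correction, 69.5% with the block added and 39.5% with upper-quartile factors. The deviations of same-numbered libraries had correlations of 0.0929, -0.0678 and 0.123, and those of unlike numbers -0.168 to 0.135. Values this mixed cannot settle whether libraries were paired. No label says that a number marks a shared batch, so the numbers were not taken as pairs. The block left 0 calls with 6 libraries and changed no call among the 6 genes. Among the related lists without Rosa26 gRNA replicate 1, the block added Slc37a4 (0.22, edgeR adjusted p = 0.0436) and took away Glud1 (-0.15, 0.0888). In that fit JunD gRNA replicate 1 has no same-numbered control and adds nothing to the group difference. The block there is thus nearly the fit without JunD gRNA replicate 1, and not a separate check. With the correction added to the block, Slc37a4 (0.20, 0.0383) and Rrad (-0.53, 0.0368) passed, as did Ppp3cb, Gpd2, Slc25a4 and Cacna1h, and Atp2a3 (0.09, 0.0504), Atp2b1 and Glud1 did not.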
